A study of Homo sapiens with 6 samples.

Results

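The LINC-named long noncoding RNAs of HepG2 cells were taken as the genes whose symbol is LINC followed by digits and whose mean FPKM (fragments scaled to transcript length and to library size) over the 6 libraries was at least 0.5. They were selected on this mean level, not on the difference between groups, and 109 of the 540 LINC-named genes listed passed, out of 29153 genes listed and 13452 that passed the same minimum. Of the 109, 98 had a mean of at least 0.5 in the control group, 108 in the knockdown group and 97 in both, so 11 passed only through sh-LINC01977 libraries and 1 only through sh-NC libraries. HepG2 is an established human liver cancer cell line. The libraries came from HepG2 cells infected with lentivirus that carried a control hairpin (sh-NC) or a hairpin against the long noncoding RNA LINC01977 (sh-LINC01977), selected with puromycin and collected at 72 h, with 3 libraries in each group. Both groups thus carried a lentiviral hairpin and met the antibiotic, the knockdown libraries carry 1 hairpin name, and no label says whether the 3 libraries of a group came from separate cultures, so the p-values measure the spread between these libraries, which may be technical. The comparison asked which of these RNAs differed between the groups.

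LINC symbols are given to long noncoding RNAs that lie between protein-coding genes and have no other name. Most are spliced and polyadenylated by the machinery that makes messenger RNA, are present at few copies per cell, and are more restricted to certain cell types than coding transcripts. Some act on the chromatin of neighbouring genes, some bind proteins or microRNAs, a few hold short reading frames that are translated, and for most no function is known.

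The targeted gene, LINC01977 (ENSG00000262772), was not among the 109. The sh-NC libraries held 4, 0 and 16 of its counts against 0, 0 and 4 under sh-LINC01977, its mean of 0.030 FPKM ranked 328 among the 540 LINC-named genes, and the groups overlapped. In a fit of every listed gene the log2 fold change came to -2.12 (standard error, SE, 1.96) (adjusted p = 0.580, edgeR), and an exact permutation test, two-sided, gave p = 0.7, where 3 libraries against 3 allow no p below 0.1. At this depth no change of the target was detectable, and libraries are called by their labels.

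Total counts per library lay between 49929024 and 60441515, and Pearson correlations of log2 values were 0.978 to 0.981 within groups and 0.969 to 0.973 across them. The 9 hepatocyte and HepG2 markers were listed in every library, with a summed level of 4479 to 4903 FPKM in sh-NC and 3272 to 3318 FPKM in sh-LINC01977 libraries. Of the fibroblast markers 2 of 5 were listed, with a sum of at most 0.0351 FPKM, and of the endothelial markers 3 of 4, with a sum of at most 0.441 FPKM. The 4 immune markers summed to 626 to 633 FPKM in sh-NC and 543 to 558 FPKM in sh-LINC01977 libraries, nearly all of it LYZ, while PTPRC, which marks blood cells, was at most 0.0065 FPKM. The part of these shifts in the results that follow was not tested, and in bulk RNA fewer cells of a type and less RNA per cell cannot be told apart.

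In every alternative fit that tested them, 5 RNAs kept an adjusted p under 0.05. LINC00654, which lay below a minimum of 1 FPKM, was in 14 of these fits, and each of the others in 15. LINC01234, LINC00654, LINC00941 and LINC00973 were higher in sh-LINC01977 libraries, and LINC02015 was lower. Their promoters are shown so that the starts of these RNAs can be compared. Each runs from 250 bases before the RefSeq start to 50 bases after it, 5′ to 3′ on the strand of the gene, in GRCh38.p14, and capitals mark matches to any of the motifs named after them.
LINC01234, chr12:113773634-113773933, minus strand: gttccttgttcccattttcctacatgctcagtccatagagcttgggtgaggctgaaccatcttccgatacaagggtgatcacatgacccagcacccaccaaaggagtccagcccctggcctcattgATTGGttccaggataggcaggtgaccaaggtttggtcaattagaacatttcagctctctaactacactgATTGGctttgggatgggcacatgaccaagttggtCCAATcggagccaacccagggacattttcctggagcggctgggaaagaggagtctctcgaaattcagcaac
LINC00654, chr20:5504547-5504846, minus strand: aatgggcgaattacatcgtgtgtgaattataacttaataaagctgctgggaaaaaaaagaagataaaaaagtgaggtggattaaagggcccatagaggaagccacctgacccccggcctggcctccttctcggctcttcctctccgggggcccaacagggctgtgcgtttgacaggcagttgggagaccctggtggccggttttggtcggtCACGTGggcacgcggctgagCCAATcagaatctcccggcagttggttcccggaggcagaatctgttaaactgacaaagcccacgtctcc
LINC00941, chr12:30795431-30795730, plus strand: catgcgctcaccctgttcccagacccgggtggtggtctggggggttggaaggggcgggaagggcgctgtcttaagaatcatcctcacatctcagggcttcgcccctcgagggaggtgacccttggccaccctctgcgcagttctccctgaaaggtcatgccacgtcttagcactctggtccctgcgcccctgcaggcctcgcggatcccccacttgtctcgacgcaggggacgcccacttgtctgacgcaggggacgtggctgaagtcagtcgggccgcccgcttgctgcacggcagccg
LINC00973, chr3:98980805-98981104, plus strand: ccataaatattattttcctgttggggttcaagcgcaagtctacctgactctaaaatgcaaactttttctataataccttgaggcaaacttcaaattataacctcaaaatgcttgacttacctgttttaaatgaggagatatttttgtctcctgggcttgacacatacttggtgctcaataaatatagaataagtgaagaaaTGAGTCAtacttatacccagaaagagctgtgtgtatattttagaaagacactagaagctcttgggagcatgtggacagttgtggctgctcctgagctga
LINC02015, chr3:177816615-177816914, plus strand: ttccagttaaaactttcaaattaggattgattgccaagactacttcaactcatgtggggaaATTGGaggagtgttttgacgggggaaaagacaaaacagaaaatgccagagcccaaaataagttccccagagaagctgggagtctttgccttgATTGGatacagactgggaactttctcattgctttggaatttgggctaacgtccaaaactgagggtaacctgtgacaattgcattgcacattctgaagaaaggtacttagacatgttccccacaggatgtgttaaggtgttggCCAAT

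The RefSeq start was the start in the table for LINC01234, LINC00941 and LINC02015, and lay 17 bases from it for LINC00654 and 3 bases from it for LINC00973, which has 4 RefSeq starts. The windows differed in composition. That of LINC00941 was 66.0% G and C with 21 CpG dinucleotides, and that of LINC00973 was 37.3% with 1. Motifs were searched on both strands by their letters, and no motif contains the letters of another. LINC01234 held 3 CCAAT boxes, the first bases of which lay 124, 55 and 21 bases before the start, and LINC02015 held 3, at 189 and 97 bases before the start and 46 bases after it. LINC00654 held an E-box (CACGTG) 39 bases before the start and a CCAAT box at 19 bases. LINC00973 held a site of the AP-1 factors (TGANTCA) 49 bases before the start, and LINC00941 held none of the motifs. Of the 109 RNAs, 65 matched a RefSeq promoter, and in 47 of them the RefSeq start lay within 100 bases of the start in the table.

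Over the 65 promoters, AP-1 letters were present in 10 (15.4%, against 7.71% of 35116 RefSeq promoters), CCAAT in 31 (47.7% against 34.6%), letters of the FOXA factors (TGTTTAC), which are active in liver cells, in 5 (7.69% against 3.42%), the E-box in 7 (10.8% against 7.26%), TEAD letters (CATTCC) in 7 (10.8% against 14.0%), and the cyclic AMP response element (TGACGTCA) in 0, against 1.85%. Among the 11 of these promoters that belonged to RNAs called higher, 2 held AP-1 letters and 4 held CCAAT. The median number of CpG dinucleotides was 8 in the 65 windows and 14 in all RefSeq promoters. The 2 sets thus differ in composition, and the shares are not a like comparison and were not tested. These matches are letters in a window and say nothing of binding.

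The hairpin sequences listed by the study are shown because a hairpin can also act on other transcripts through a short seed. The study lists 1 hairpin against LINC01977, and it was assumed that the sequenced cells carried this one, since their hairpin is named by a number only. Capitals mark the 7 bases a transcript would share with the hairpin to pair with bases 2 to 8 of its antisense strand.
sh-LINC01977: gcattcgtcttccCTGGATTt
sh-NC: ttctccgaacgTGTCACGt

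Annotated transcripts were found for 108 of the RNAs, and 0 of 13425 tested genes held either hairpin's whole sequence. LINC01977 and the other genes below the minimum level were not searched. The 0 therefore does not show whether the hairpin matches its target or a gene of low level. The site CTGGATT was in 24 of the 108 (22.2%), against 33.4% of the tested genes, and the median log2 fold change of those RNAs was 0.15, against 0.07 in those without it. Of the 24, 3 were called higher (LINC00941, LINC00511 and LINC00355) and 1 lower (LINC01909). The control's site TGTCACG was in 6 of the 108 (5.56%, against 8.64%), and the median log2 fold change was -0.27 in those and 0.13 in those without it. Among all 13425 tested genes the medians with and without the site were 0.0074 and -0.0066 for CTGGATT, and -0.00060 and -0.00095 for the control's site. Of the 6, LINC00511 was called higher and 0 lower. An effect of the seeds was not tested.

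The 109 RNAs were expressed at low levels. Their mean FPKM ran from 0.5003 to 19.7 with a median of 1.27, 41 were below 1 FPKM and 9 were at 5 FPKM or more. Their counts in single libraries ran from 4 to 4155, and the median of their mean counts was 198, against 1368 over all tested genes. The fold changes were accordingly less precise, with a median SE of 0.20 on the log2 scale against 0.11. The minimum fell within a dense range of levels. LINC02035 and LINC00174 at 0.5003 FPKM and LINC00106 at 0.508 FPKM were just inside, and LINC00316 at 0.490, LINC00843 at 0.472 and LINC01549 at 0.470 FPKM were just outside.

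In GENCODE 29 (GRCh38), which holds 108 of the 109 (all but LINC01969), 80 were annotated as lincRNA, 9 as processed transcripts, 9 as antisense, 3 as bidirectional promoter RNAs, 4 as transcribed pseudogenes, 1 as a transcript still to be tested by experiment (LINC01101) and 2 as protein-coding. The coding ones were LINC00094 and LINC00116, the latter of which encodes mitoregulin, a small protein of the mitochondrial inner membrane. They lay on 22 chromosomes, 14 had a single exon, and the median of the longest transcript was 1876.5 nucleotides, in a range from 331 to 9678. In 39 an exon overlapped an exon of another gene, on the opposite strand in 28 and on the same strand in 16, and 69 had no such overlap. Of the 16 RNAs called below at an adjusted p under 0.05, 6 had such an overlap. LINC00941 and LINC00261 had it on the same strand, and LINC00654, LINC00511, LINC01909 and LINC00242 on the opposite strand. The strand setting of the counting is not given in the sources used here, so reads of overlapping genes may be shared, also for these 6.

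The RNA with the highest level was LINC02313 on chromosome 14, with 15.2, 13.4 and 18.2 FPKM in sh-NC and 22.9, 23.1 and 25.2 FPKM in sh-LINC01977 libraries. The groups did not overlap, and by counts its log2 fold change was 0.54 (SE 0.13, adjusted p = 0.0345, edgeR). LINC01021, also known as PURPL, an RNA induced by p53 that restrains p53, followed with 10.2, 10.1 and 10.5 FPKM against 11.4, 12.3 and 12.6 FPKM. Its groups did not overlap either, but its log2 fold change of 0.17 (SE 0.06) did not pass (adjusted p = 0.110). The next levels lay close together. LINC02001 had 6.96, 6.39 and 7.06 FPKM in sh-NC and 7.77, 6.89 and 6.84 FPKM in sh-LINC01977 libraries. LINC02525 had 6.72, 7.55 and 7.19 FPKM against 6.17, 4.43 and 6.17 FPKM, and all its sh-LINC01977 libraries were below the sh-NC libraries (log2 fold change -0.42, adjusted p = 0.0992). LINC01426, LINC00513, LINC00511 and LINC02365 had means of 5.99, 5.92, 5.70 and 5.37 FPKM, and of these LINC00511 was called. The ranges of the 6 libraries overlapped between neighbours in this order from LINC02001 down to LINC02365, and LINC02313 and LINC01021 stood above them.

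Summed over the 109, the level was 207 ± 6.29 FPKM in sh-NC and 239 ± 5.92 FPKM in sh-LINC01977 libraries (SD, n = 3), a ratio of 1.15, and the groups did not overlap (p = 0.1 by an exact permutation test, two-sided, which in this design cannot give less). The RNAs were chosen by these FPKM values, and 11 passed only through sh-LINC01977 libraries, against 1 only through sh-NC libraries. The summed level is thus partly set by the choice of RNAs, and this p is not read as support for a difference. The difference of 31.7 FPKM was carried by few RNAs. LINC02313 contributed 25.6% of it, LINC01173 13.4%, LINC00973 10.3% and LINC00659 6.63%, while LINC02015 took away 6.85% and LINC02525 4.93% of it. The log2 ratio of mean FPKM was 0.39 for LINC00511 and -1.21 for LINC02015, against log2 fold changes of 0.33 and -1.27 by counts. As a share of all counts, the RNAs held 0.0621% to 0.0684% in sh-NC and 0.0707% to 0.0737% in sh-LINC01977 libraries, a ratio of 1.11 between group means. Beside this, mitochondrial genes held 11.7% to 13.5% of the counts in sh-NC and 10.6% to 11.7% in sh-LINC01977 libraries, and the number of listed LINC-named genes with a count was 329 to 356 against 369 to 370. Over all listed genes it was 22290 to 22848 against 22871 to 23250, which did not overlap either. The part of these, and of the scaling of FPKM, in the summed level was not tested.

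By counts, 12 of the 109 RNAs were higher in sh-LINC01977 libraries at an adjusted p under 0.05 (11.0%) and 4 were lower (3.67%) in the quasi-likelihood test of edgeR, adjusted by Benjamini and Hochberg over all tested genes. Among all 13452 tested genes, 7.05% were higher and 8.07% lower by the same rule. At a fold change of at least 2 with an unadjusted P of at most 0.05, 8 were higher (7.34%, against 1.55% of all tested genes) and 1 was lower (0.917%, against 1.05%). The counts scaled to each library (CPM, counts over the scaled library size) did not overlap between groups in 31 RNAs that were higher (28.4%, against 18.8%) and 11 that were lower (10.1%, against 18.3%). Of the higher RNAs, LINC00654 and LINC01503 by the adjusted p, and these and LINC01271 by the 2-fold rule, reached the minimum level only through the sh-LINC01977 libraries, so the counts of higher RNAs are partly set by the choice of RNAs. Among the 97 RNAs at the minimum in both groups, 10 were higher and 4 lower by the adjusted p, and 5 and 1 by the 2-fold rule. The shares over all genes at the minimum in both groups were not counted, so these numbers have no like background. Under both rules 7 RNAs were called, 18 were called under either and 91 under neither. The median log2 fold change was 0.12, against -0.0010 over all tested genes, and 70 RNAs had a positive sign (64.2%, against 49.8%). With any 1 library left out, the number higher at an adjusted p under 0.05 was between 4 and 7, and the number lower between 1 and 3.

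**Figure D1:**
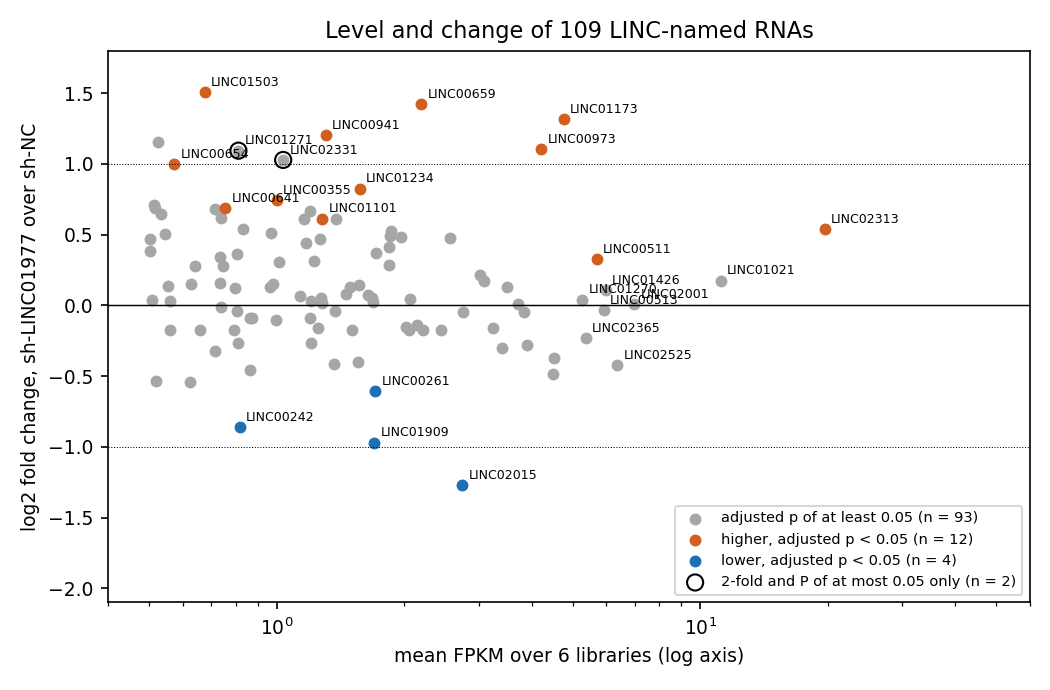
Mean FPKM over the 6 libraries (log axis) and log2 fold change of sh-LINC01977 over sh-NC for the 109 RNAs, 1 point each. The 12 called higher lie across the range of levels, from LINC00654 at 0.572 FPKM to LINC02313 at 19.7 FPKM, and the dotted lines mark a 2-fold change.

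Of the RNAs that rose, LINC01234, which has been linked to growth of several carcinomas, had the smallest p. Its counts were 324, 326 and 364 in sh-NC and 576, 745 and 540 in sh-LINC01977 libraries, and the groups did not overlap. It rose 1.77-fold (log2 fold change 0.83, SE 0.11, adjusted p = 0.00565, edgeR). LINC00654 on chromosome 20 had counts of 158, 145 and 175 against 354, 396 and 242. Its sh-NC libraries were close together, every sh-LINC01977 library was higher, and the log2 fold change was 1.0 (SE 0.17, adjusted p = 0.0115). LINC00941, which has been linked to invasion and epithelial-mesenchymal transition in tumours, had counts of 136, 88 and 129 against 325, 293 and 216. It rose 2.30-fold (log2 fold change 1.20, SE 0.21, adjusted p = 0.0117). LINC00973 on chromosome 3 had counts of 196, 133 and 186 against 443, 406 and 289, with no overlap, and a log2 fold change of 1.10 (SE 0.19, adjusted p = 0.0120).

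The largest rises were in RNAs of low count. LINC01503, which in squamous carcinoma is driven by a super-enhancer bound by TP63, had counts of 46, 44 and 21 in sh-NC and 127, 125 and 81 in sh-LINC01977 libraries. The third library was the lowest of each group, and the log2 fold change was 1.51 (SE 0.38, adjusted p = 0.0418, edgeR). LINC00659, an antisense-type RNA of 540 nucleotides on chromosome 20, had counts of 38, 51 and 38 against 129, 139 and 89. Every sh-LINC01977 library was above every sh-NC library, and the log2 fold change was 1.42 (SE 0.27, adjusted p = 0.0161). LINC01173 on chromosome 2, the shortest of the RNAs with 331 nucleotides, had counts of 74, 65 and 38 against 160, 167 and 134. Its log2 fold change was 1.31 (SE 0.31, adjusted p = 0.0331), and the third sh-NC library stood below the other two. The adjusted p of these 3 rose above 0.05 in some of the alternative fits, reaching at most 0.113, 0.0576 and 0.0905 in that order.

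Smaller rises were measured in RNAs with more reads. LINC00511, which is reported at high levels in many tumours and was the only RNA of the liver cancer list called higher, had counts of 2788, 2830 and 3072 in sh-NC and 3603, 4155 and 3502 in sh-LINC01977 libraries. The groups did not overlap, and it rose 1.26-fold (log2 fold change 0.33, SE 0.06, adjusted p = 0.0170, edgeR). LINC00641 had counts of 222, 211 and 226 against 308, 448 and 342, a log2 fold change of 0.69 (SE 0.15, adjusted p = 0.0260). LINC02313 had counts of 582, 458 and 737 against 837, 945 and 847. The remaining 2, LINC01101 (log2 fold change 0.61, adjusted p = 0.0389) and LINC00355 (0.75, adjusted p = 0.0492), lay nearer to the threshold and were chosen for mention after their values were seen.

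LINC02331 and LINC01271 passed the 2-fold rule alone. LINC02331 had counts of 34, 25 and 23 in sh-NC and 48, 79 and 48 in sh-LINC01977 libraries (log2 fold change 1.03, SE 0.30, adjusted p = 0.0645, edgeR). LINC01271 had counts of 104, 79 and 46 against 206, 166 and 138 (log2 fold change 1.09, SE 0.35, adjusted p = 0.0863). Neither overlapped between groups, and the exons of LINC01271 overlap those of LINC01270 on the other strand. LINC01270 had counts of 1053, 1055 and 1003 against 1155, 1189 and 970, with overlapping groups and a log2 fold change of 0.04 (adjusted p = 0.838).

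**Figure D2:**
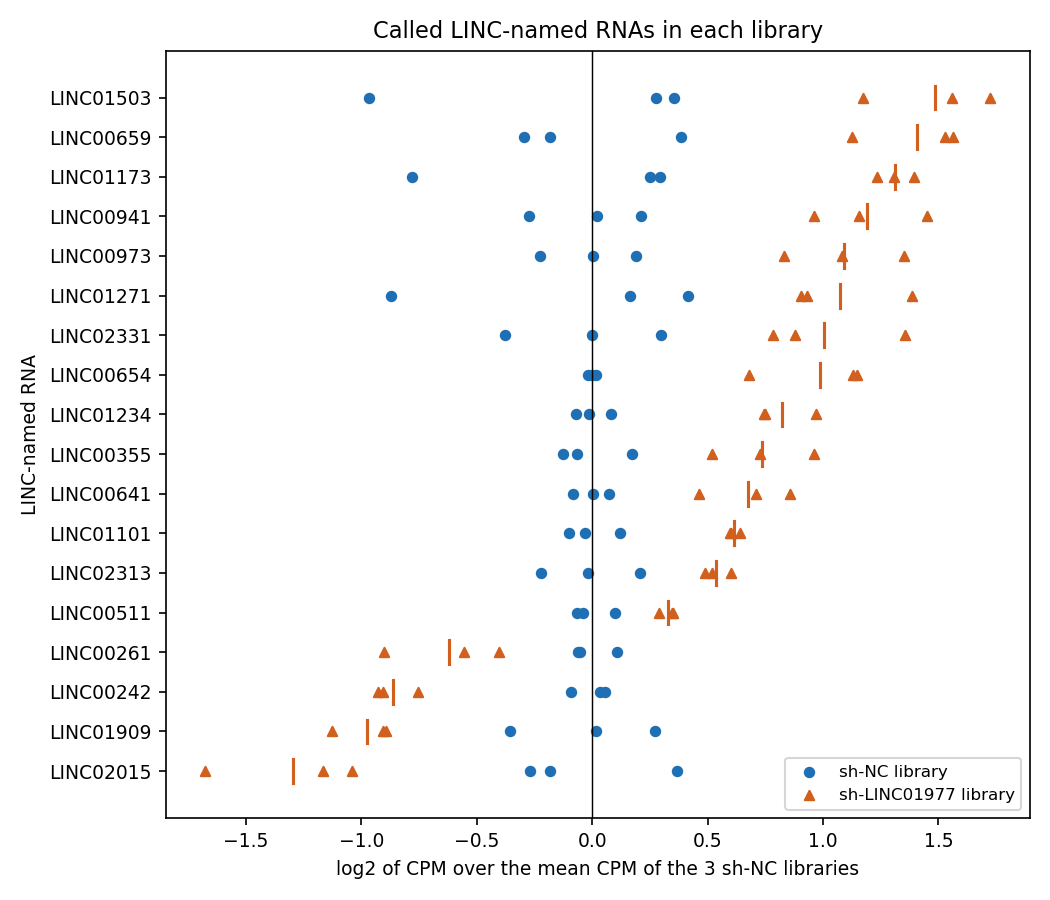
CPM of each library over the mean of the 3 sh-NC libraries (log2 scale) for the 18 RNAs called by either rule, with circles for sh-NC libraries, triangles for sh-LINC01977 libraries and a vertical bar at the mean of the triangles. In each of the 18 rows the triangles lie to 1 side of all circles, and the circles of LINC01503, LINC01173 and LINC01271 spread the most.

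Of the 4 RNAs that fell, LINC02015 on chromosome 3 had the largest change. Its counts were 695, 592 and 1097 in sh-NC and 249, 428 and 332 in sh-LINC01977 libraries. The third sh-NC library was the highest, the groups did not overlap, and the level was 2.41-fold lower (log2 fold change -1.27, SE 0.23, adjusted p = 0.0152, edgeR). The nearest tested protein-coding gene, TBL1XR1, a subunit of nuclear corepressor complexes, lay 588865 bases away and had a log2 fold change of 0.45 (adjusted p = 0.121). LINC01909 on chromosome 18 had counts of 161, 113 and 208 against 86, 96 and 69, with a log2 fold change of -0.97 (SE 0.22, adjusted p = 0.0299). Its adjusted p was under 0.05 in 8 of 15 alternative fits and at most 0.0910.

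LINC00242 on chromosome 6 had counts of 177, 147 and 194 in sh-NC and 92, 103 and 97 in sh-LINC01977 libraries, and a log2 fold change of -0.86 (SE 0.16, adjusted p = 0.0157, edgeR). The adjusted p was under 0.05 in 10 of 14 alternative fits and at most 0.0580. Its exons overlap those of LINC00574 on the other strand, which lay below the minimum level. LINC00574 had counts of 63, 85 and 138 against 23, 31 and 35 and a log2 fold change of -1.71 in a fit of every listed gene (adjusted p = 0.0362). Since the strand of the reads is not known here, the values of this pair may share reads.

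LINC00261, an RNA of endoderm and liver that lies beside FOXA2, the gene of a liver and endoderm transcription factor, had counts of 745, 671 and 899 in sh-NC and 590, 588 and 391 in sh-LINC01977 libraries. The groups did not overlap, with a log2 fold change of -0.60 (SE 0.15, adjusted p = 0.0366, edgeR). FOXA2, 2363 bases away, had a log2 fold change of -0.06 (adjusted p = 0.628). The adjusted p of LINC00261 was under 0.05 in 6 of 15 alternative fits, and that of LINC02015 in 15 of 15.

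A list of 25 LINC-named RNAs reported in liver cancer had 14 members in the table and 6 at or above the minimum, with a median log2 fold change of 0.22. LINC00511 rose and LINC00261 fell. The other 4 did not pass, with a log2 fold change of 0.31 for LINC00467, 0.67 for LINC01146, 0.12 for LINC00662 and 0.04 for LINC01089. Of 8 LINC-named genes known to encode small peptides, 3 were listed and 2 passed the minimum. LINC00467, which encodes a peptide of the ATP synthase, had an adjusted p of 0.153, and LINC00116, with a log2 fold change of -0.05, had an adjusted p of 0.808 (edgeR). Their median was 0.13.

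The same fit was set beside other classes of gene name as a description. Of 204 genes named as antisense to another gene (the suffix AS and digits), 10 rose (4.90%) and 6 fell (2.94%) by the adjusted p, with a median log2 fold change of 0.04. Of 1202 genes with clone names, 26 were higher (2.16%) and 35 lower (2.91%), with a median of -0.03. Of 19 host genes of small nucleolar RNAs (SNHG), 0 were higher and 3 lower (15.8%) (edgeR), with a median of -0.23. Of 11030 protein-coding genes 889 were higher (8.06%) and 1015 lower (9.20%), with a median of 0.0020. The LINC-named shares by the adjusted p were 11.0% and 3.67%. By the 2-fold rule the LINC-named share of 7.34% higher stood beside 2.45% of antisense-named, 2.25% of clone-named and 1.47% of protein-coding genes, and 0 of the 19 SNHG genes. Of the 8 RNAs in the LINC-named share, 3 reached the minimum level only through the sh-LINC01977 libraries. The other classes were not checked for this, so these shares are not a like comparison. The difference between the classes was not tested, and levels differed, since the median mean level was 5.12 FPKM in protein-coding and 1.27 FPKM in antisense-named genes.

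**Figure D3:**
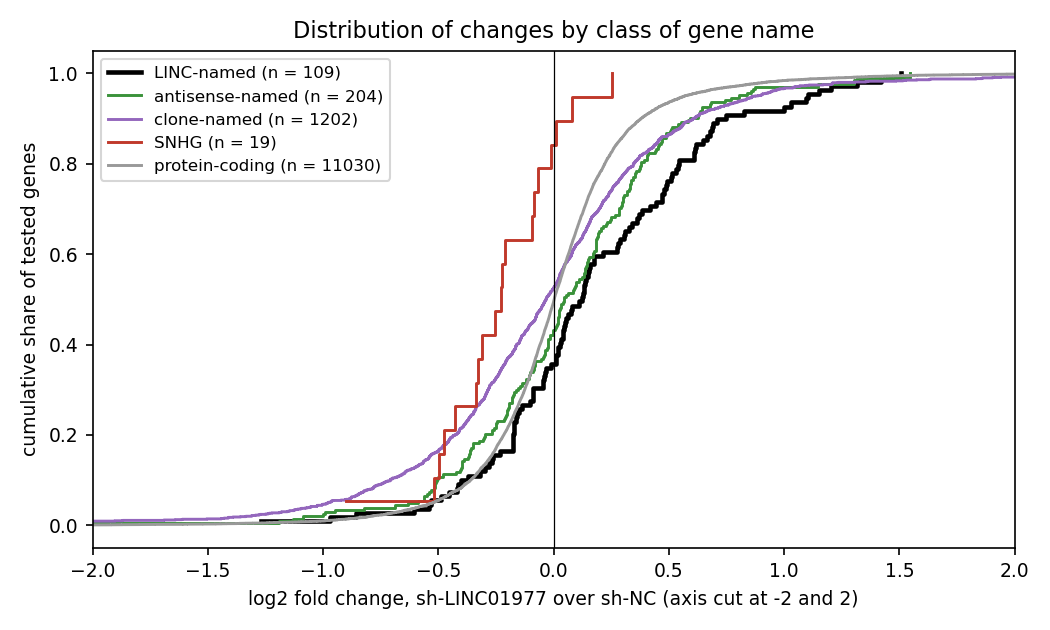
Cumulative share of tested genes (vertical axis) by log2 fold change of sh-LINC01977 over sh-NC (horizontal axis, limited to -2 and 2), with 1 line for each class of gene name. The line of the 109 LINC-named RNAs lies to the right of the protein-coding line over most positive values, and their medians are 0.12 and 0.0020.

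Since some lincRNAs act on nearby genes, each RNA was set beside its nearest tested protein-coding gene, by the coordinates in the deposited table. In 42 RNAs this gene lay within 10 kb, and across these pairs the log2 fold changes had a Pearson r of 0.0067 and a Spearman rho of 0.13, with the same sign in 18. All pairs share the same 6 libraries. Of these 42 neighbours 6 were called at an adjusted p under 0.05, beside 0 of the 5 RNAs called in this range (edgeR). In 12 pairs the RNA and a protein-coding gene started within 1 kb of each other in opposite directions, and 5 of the 12 had the same sign. By edgeR, 0 of these RNAs and 2 of their partners, PATZ1 beside LINC01521 and SLC12A2 beside LINC01184, were called.

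At any distance, 4 of the 16 called RNAs had a called neighbour (25%), against 18 of 92 RNAs that were not called (19.6%) and 15.1% of all tested genes. All neighbours are protein-coding, and of the tested protein-coding genes 8.06% were called higher and 9.20% lower, which is the closer background. The difference between these shares was not tested. In the 4 pairs both genes were higher. LINC00659 lay 11357 bases from NTSR1, a receptor for neurotensin (log2 fold change 1.37, adjusted p = 0.0016, edgeR). LINC00973 lay 79369 bases from DCBLD2, a transmembrane protein of receptor signalling (0.97, adjusted p = 3.2e-04). LINC00654 lay 39791 bases from GPCPD1, an enzyme of glycerophosphocholine breakdown (0.75, adjusted p = 0.0156), and LINC01101 lay 112527 bases from INHBB, which encodes a subunit of activin and inhibin (0.58, adjusted p = 0.0060). CEBPB, a liver transcription factor gene near LINC01271, went the other way (-0.41, adjusted p = 0.0499).

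**Figure D4:**
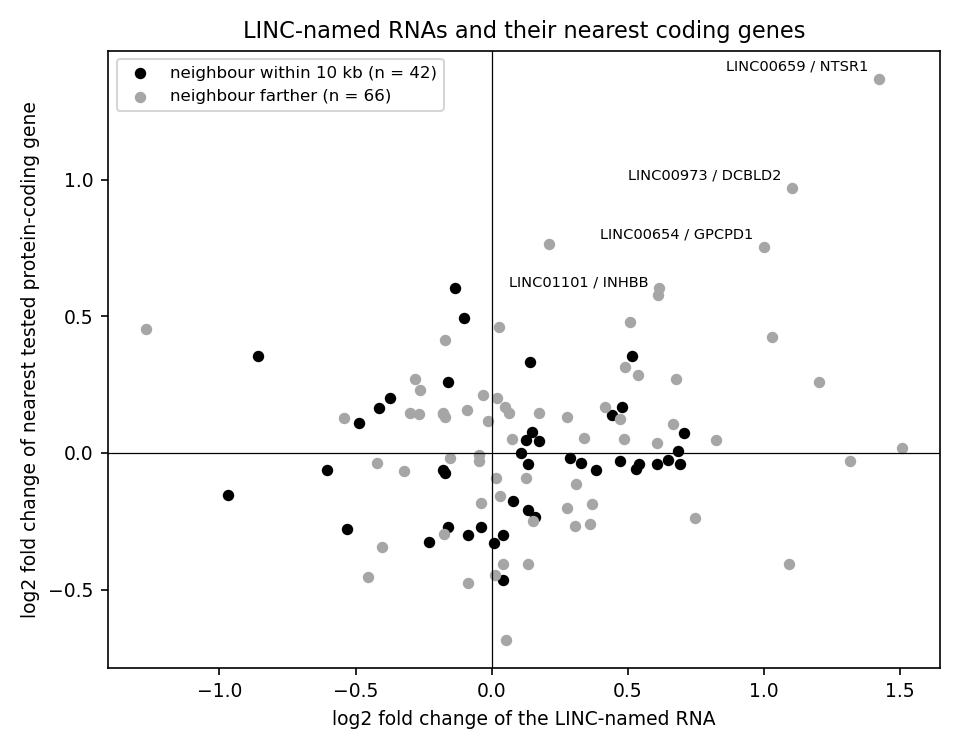
Log2 fold change of each RNA (horizontal axis) and of its nearest tested protein-coding gene (vertical axis) in sh-LINC01977 over sh-NC, for 108 RNAs, in black where the distance is within 10 kb (42) and in grey where it is farther. The 4 pairs in which both genes were called are named and lie in the upper right.

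Of the 109 RNAs, 15 lay within 200 kb of another, in 7 groups. LINC01503 and LINC00963 on chromosome 9 had log2 fold changes of 1.51 and -0.15, and LINC01271, LINC01270 and LINC01273 on chromosome 20 had 1.09, 0.04 and 0.13. LINC00526 and LINC00667 on chromosome 18 had -0.30 and -0.18, and LINC01128 and LINC00115 on chromosome 1 had -0.18 and -0.27. Differences between such neighbours were not tested.

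In 8 RNAs the counts differed more than 3-fold between libraries of a group, and 0 of these 8 were called (edgeR). A wide spread within groups raises the SE, so the lack of calls follows partly from this choice. The share of all tested genes with such a spread was not counted, so the number is not read as particular to these RNAs. The widest was LINC01291 on chromosome 2, with counts of 1706, 1675 and 81 in sh-NC and 1486, 1576 and 94 in sh-LINC01977 libraries. The third library was low in each group, by 21.1-fold and 16.8-fold from the highest, and the log2 fold change between groups was -0.28 (SE 1.19, adjusted p = 0.901). LINC01293, which lies next to it on the same strand, had counts of 47, 63 and 26 against 91, 101 and 41, also lowest in the third libraries. LINC01146, a liver cancer list member, went the other way, with counts of 98, 86 and 358 against 285, 143 and 402. LINC00239 had counts of 65, 33 and 17 against 42, 51 and 9. These 4 RNAs were chosen for mention after their values were seen, and a cause shared by the third libraries was not tested.

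**Figure D5:**
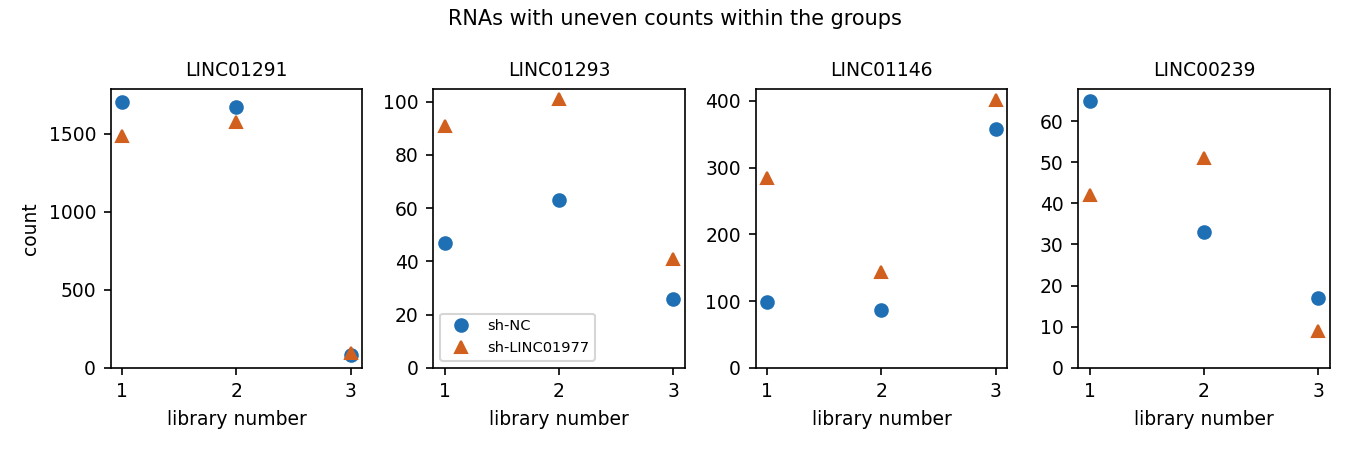
Counts (vertical axis, from 0) in the libraries numbered 1 to 3 (horizontal axis) of sh-NC (circles) and sh-LINC01977 (triangles) for 4 RNAs with uneven counts. LINC01291 is at 81 and 94 in the third libraries and between 1486 and 1706 in the other 4.

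An unadjusted p under 0.05 with an adjusted p of at least 0.05 was found in 20 RNAs, LINC02331 and LINC01271 included. LINC01963 (log2 fold change 0.42, adjusted p = 0.0572, edgeR), LINC01806 (0.48, adjusted p = 0.0898) and LINC00857 (0.53, adjusted p = 0.0926) were others. So were LINC02482 (-0.49, adjusted p = 0.0928) and LINC00205 (-0.37, adjusted p = 0.0989). Those named here with values were chosen after their values were seen. In all, 36 had an unadjusted p under 0.05, 27 of them higher and 9 lower. The share of all tested genes with an unadjusted p under 0.05 was not counted, so these numbers are not read as particular to the RNAs. The log2 fold change of 47 RNAs was under 0.2 in size, with an unadjusted p of at least 0.05 in 46 of them, all but LINC01021, which does not show that these were equal.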

How the data were processed

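RNA was sequenced from 3 sh-NC and 3 sh-LINC01977 libraries of HepG2 cells, grouped by their labels. The authors deposited raw counts, 1 whole number for each gene and library, and FPKM, in which the authors scaled fragments to transcript length and library size. The submitters' processing notes name bcl2fastq 2.0, HISAT2, StringTie, DESeq2, limma and hg38. The annotation and the strand setting of the counting are not given in the sources used here. Counts in steps of 4 were frequent (241 values of 4 in LINC-named rows, against 62 of 3 and 38 of 5), so counts may not be independent fragments.

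Genes with mean FPKM from 0.5 up (13452) were compared by counts in edgeR 4.0.16 (TMM, quasi-likelihood test, Benjamini-Hochberg adjustment over all tested genes) in R 4.3.3, and CPM use the TMM library sizes. Alternatives were other scalings and filters, DESeq2 1.42.0, limma 3.58.1 on log2(FPKM + 0.1) and log2(FPKM + 1), counts divided by 4, a replicate block, leaving out each library, and leaving out RNAs with exon overlap. The edgeR script was tested on simulated data. Coordinates and distances are those of the deposited table (GRCh38), exons and gene types those of GENCODE 29, and promoters are from RefSeq (GRCh38.p14). The RNAs and gene lists were chosen with earlier results of these data known. Named genes were LINC01977, RNAs past the 2-fold rule, the 8 with the smallest P in each direction among those with adjusted p under 0.05, the 8 with the highest level, the 3 on each side of the minimum, called list members, and nearest protein-coding genes. Replicate numbers were not taken as a pairing of the libraries, as described below with the alternatives.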

Additional observations from a re-analysis of the deposited data

How the results depend on the processing

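Between settings, the 12 higher and 4 lower RNAs at an adjusted p under 0.05 became 7 and 2 with no filter and 7 and 1 with the replicate block. They were 12 and 4 with DESeq2's size factors, 15 and 5 with DESeq2, 17 and 4 with limma on log2(FPKM + 0.1). The number lower was 1 among the 69 RNAs without exon overlap. The 8 higher RNAs at 2-fold became 5 with a minimum of 1 FPKM, where fewer genes are tested, 5 without exon overlap, and 1 (with 0 lower) with limma on log2(FPKM + 1), whose pseudocount shrinks low values. The median log2 fold change of 0.12 became 0.19 with library totals. Labels share replicate numbers, but over all tested genes same-numbered libraries did not deviate together (r = -0.029, 0.017 and 0.055). The block is therefore not read as a pairing. A batch shared by same-numbered libraries was not tested.

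Without 1 library, the number higher ranged from 4 (without sh-NC 1 or sh-LINC01977 2) to 7 (without sh-NC 3), at 5 without sh-LINC01977 3 and 6 without sh-NC 2 or sh-LINC01977 1. The number lower ranged from 1 to 3, the 2-fold numbers from 5 to 8 and 1 to 2, and the median from 0.065 to 0.16. The log2 fold change of LINC01977 (-2.12) was -2.20 with DESeq2 and ranged from -5.73 without sh-LINC01977 3 to -0.52 without sh-NC 3. Signs turned for LINC00106 (0.041 as reported, -0.029 without sh-NC 2, and from -0.27 without sh-NC 3 to 0.53 without sh-NC 1), LINC00513 (-0.032 as reported, 0.035 with library totals, 0.00055 with the replicate block, 0.066 and 0.053 with limma at pseudocounts of 0.1 and 1, and from -0.21 without sh-NC 3 to 0.17 without sh-NC 2) and LINC02001 (0.0094 as reported, -0.0038 with no filter, -0.037 without sh-NC 2, and from -0.052 without sh-LINC01977 1 to 0.052 without sh-LINC01977 3), none of them called. Causes were not tested. Other comparisons of named RNAs kept direction and call in 292 cases, lost the call in 55 and gained it in 10. Low counts limit precision.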

Other observations

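Of the 431 LINC-named genes below 0.5 FPKM, 3 rose and 2 fell (adjusted p under 0.05) when edgeR was fitted to every listed gene (0.696% and 0.464%, against 0.541% and 0.197% of all genes below the minimum), and the median log2 fold change was 0.29, against 0.13 over all 15701 genes below the minimum. LINC00668 had counts of 176, 190 and 206 in sh-NC and 60, 58 and 58 in sh-LINC01977 libraries (log2 fold change -1.75, adjusted p = 0.0033, edgeR). LINC02204 had counts of 23, 25 and 12 against 95, 109 and 110 (2.31, adjusted p = 0.0131), LINC01588 62, 78 and 65 against 135, 183 and 155 (1.14, adjusted p = 0.0310), and LINC00326 23, 16 and 12 against 60, 62 and 54 (1.72, adjusted p = 0.0392). LINC00574 is described above. LINC00469 was at 0 in the 3 sh-NC libraries and had counts of 19, 8 and 12 in the sh-LINC01977 libraries. LINC01996 was at 0 against 8, 9 and 31. Neither was called (adjusted p = 0.0617 and 0.0680, edgeR). Among those that went the other way, LINC01160 had counts of 5, 4 and 4 and LINC01482 of 2, 3 and 13 in sh-NC libraries. Both were at 0 in the sh-LINC01977 libraries and were not called (adjusted p = 0.203 and 0.195, edgeR). These genes were chosen after their values were seen.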
